A study of Mus musculus with 11 samples.

Results

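Brain fibroblasts are the matrix-producing cells of the meninges and of the sheath around larger vessels, and they were examined here as 118 cells among 132437 retained cells of 11 mouse brain libraries. A barcode was retained with more than 500 detected genes, more than 1000 unique molecular identifiers (UMIs, each standing for 1 captured RNA molecule) and under 25% mitochondrial UMIs. A retained cell counted as a fibroblast when at least 3 of 6 fibroblast genes (Dcn, Col1a1, Col1a2, Col3a1, Lum and Slc6a13) were detected. It also had to show fewer than 2 of 5 mural genes (Myh11, Cnn1, Kcnj8, Abcc9 and Atp13a5) and fewer than 2 of 7 genes of endothelium, microglia, oligodendrocytes, astrocytes and choroid plexus (Cldn5, Pecam1, P2ry12, Tmem119, Mog, Aqp4 and Kcnj13). The members were therefore chosen by measured values of these 18 genes, which are described and not tested. In all, 542 retained cells carried 3 or more fibroblast genes. Of these, 239 were set aside for mural genes and 329 for the other genes, some of them for both. Of the cells kept, 25 had exactly 3 of the fibroblast genes, 18 had 4, 30 had 5 and 45 had all 6. A further 147 cells that passed both exclusions stood just outside the rule with 2 fibroblast genes.

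Fibroblasts of the brain lie in the pia, arachnoid and dura and in the perivascular space, and they are scarce in the parenchyma itself. They make fibrillar collagens, the small proteoglycans decorin (Dcn) and lumican (Lum) that bind collagen fibrils, and basement membrane laminins. Meningeal fibroblasts also carry solute transporters, such as the GABA and taurine transporter Slc6a13, and secrete retinoic acid, insulin-like growth factor 2 and prostaglandin D synthase. After brain injury they are known for laying down scar matrix and for secreting chemokines that attract leukocytes.

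Single-cell RNA sequencing of the right brain was carried out in 4 groups of mice, to ask how global loss of Lrg1 alters brain cells after ischaemia and reperfusion. The sham + WT group held 3 male wild-type C57BL/6 mice aged 8 to 10 weeks, in which surgery stopped short of occluding the vessel. The MCAO/R + WT group held 2 such mice after middle cerebral artery occlusion and reperfusion, in which a nylon filament blocked the artery and was then withdrawn. The sham + Lrg1-/- and MCAO/R + Lrg1-/- groups held 3 mice each of the line C57BL/6N-Lrg1em1cyagen, aged 3 months, in which a stretch from exon 1 to the stop codon in exon 2 of Lrg1 was deleted in all cells. Genotype therefore went together with age, and the substrain of the wild-type mice and the sex of the Lrg1-/- mice are not given in the sources used here. The sources list several reperfusion times and do not tie one clearly to the sequenced brains. The tissue was digested enzymatically and treated with red blood cell lysis buffer before capture.

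The libraries held 5650 to 36858 barcodes and 37159497 to 171813031 UMIs. Fibroblasts numbered 31 of 33107 retained cells in sham + WT, 11 of 18386 in sham + Lrg1-/-, 48 of 22411 in MCAO/R + WT and 28 of 58533 in MCAO/R + Lrg1-/-. Lrg1 itself had 192, 658 and 276 UMIs over all retained cells of the sham + WT mice, 17799 and 16183 in the MCAO/R + WT mice, and 0 in the Lrg1-/- mice except 1 UMI in MCAO/R + Lrg1-/- replicate 5. In fibroblasts Lrg1 was nearly absent, with 2 UMIs in each MCAO/R + WT mouse and 0 in the others. The RNA of the X-inactivation gene Xist was abundant in MCAO/R + Lrg1-/- replicates 1 and 2 alone, with 18019 and 79548 UMIs. The Y-linked gene Ddx3y had 20 and 79 UMIs in these mice and 3679 to 28668 in the others. By these genes sex differed within MCAO/R + Lrg1-/- and between 2 of its 3 mice and all mice of the groups it is compared with, so in those comparisons sex cannot be told apart from genotype or surgery for these mice. No 2 libraries had identical sums among 55 pairs, and no fibroblast barcode occurred in more than 1 library. Each library is described as 1 mouse, so p-values measure the spread between mice together with that between libraries.

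UMIs of genes typical of other cell types were unevenly present in the fibroblasts of the groups. Haemoglobin and other red blood cell genes made up at most 0.00178% of fibroblast UMIs in any WT mouse. They made up 0.0793 and 0.0941% in the sham + Lrg1-/- mice and 0.0758, 0.651 and 1.34% in the MCAO/R + Lrg1-/- mice. Over all retained cells they took 0.0229 to 0.0407% of UMIs in WT mice and 3.44 to 7.35% in the Lrg1-/- mice with fibroblasts. Sham + Lrg1-/- replicate 5, which had none, is left out of all these shares. Choroid plexus genes took 0.0222 to 0.0514% of fibroblast UMIs in WT mice and 0.192 to 0.644% in Lrg1-/- mice. Microglial genes took 0.0663 to 0.106% in all mice except MCAO/R + Lrg1-/- replicates 2 and 5, where they took 0.543 and 0.513%. Macrophage and leukocyte genes took at most 0.0314% except in those same mice, with 0.330 and 0.310%. P2ry12, Tmem119 and Kcnj13 in these lists are genes that the rule itself limited. The part of such RNA in the genotype comparisons was not tested.

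**Figure D1:**
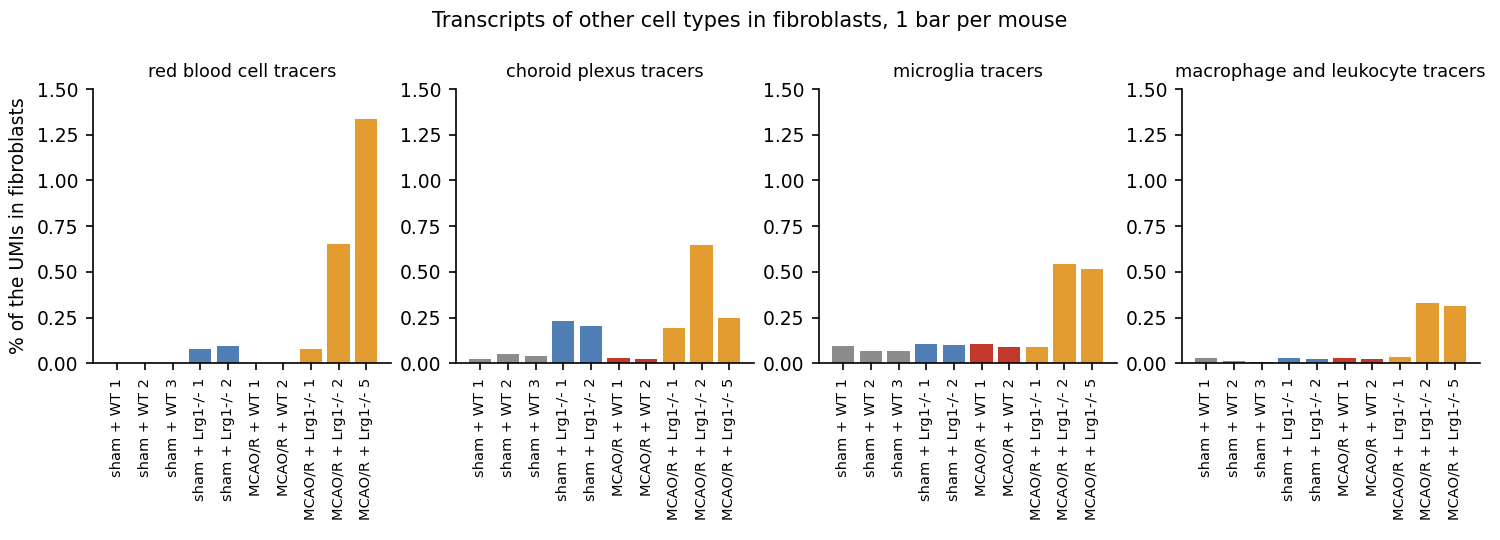
Share of fibroblast UMIs from genes of other cell types in each mouse for 4 lists (vertical axis, percent of UMIs, linear from 0), with 1 bar per mouse coloured by group. Red blood cell and choroid plexus genes lie higher in every Lrg1-/- mouse with fibroblasts than in every WT mouse, from 0.0758 to 1.34% and from 0.192 to 0.644%. Sham + Lrg1-/- replicate 5 had no fibroblasts and is not shown.

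Most of the cells carried several fibroblast genes. Dcn was detected in 114 of 118 fibroblasts (96.6%), Col1a2 in 100, Col1a1 in 96, Col3a1 in 94, Slc6a13 in 84 and Lum in 79. The rule required only part of these genes in any cell. Pdgfra, which the rule did not read, is the receptor tyrosine kinase that marks fibroblasts and oligodendrocyte precursors. It was detected in 89 cells (75.4%) against 0.639% of microglia, 0.365% of mural cells and 8.55% of choroid plexus epithelial cells. Igf2, insulin-like growth factor 2, was found in 80 cells (67.8%) against 4.36% of microglia and 60.4% of choroid plexus epithelial cells. Ptgds was found in 85.6% of fibroblasts and in 78.6% of microglia, so its detection does not set the cells apart. Mki67, a proliferation gene, had no UMI in any fibroblast and Top2a had UMIs in 2, so 0 of 118 cells for Mki67 allows a share of cells with a UMI of up to 2.54% at a floor of 3 counts. That limit covers detection, not expression below it.

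Since Dcn, Lum and Col1a2 are genes of the rule, their detection is a description of the chosen cells and no test of their identity. Dcn had UMIs in 7.40% of mural cells, 1.98% of endothelial cells and 1.27% of microglia, a class that should lack it. The median depths were close, with 6990 UMIs per fibroblast and 7553 per microglial cell. Lum was detected in 66.9% of fibroblasts and 0.274% of microglia. Col1a2 was less selective, with UMIs in 48.6% of mural cells. With every cell thinned to 1000 UMIs, Dcn was still found in 74.6% of fibroblasts. Genes used to mark other classes were also detected, with at least 3 endothelial class genes in 52 fibroblasts, 3 microglial ones in 27, 3 oligodendrocyte ones in 17 and 3 mural ones in 9. Where these UMIs came from was not tested. A doublet caller marked 2 of the 118 cells.

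The levels of the main matrix genes varied between mice. They are given in CPM, a gene's UMIs scaled to the adjusted total of tested genes in a mouse's fibroblasts. Dcn stood at 4649, 4469 and 9298 CPM in the sham + WT mice, 3517 and 1196 in sham + Lrg1-/-, 4896 and 4636 in MCAO/R + WT and 1745, 4496 and 14199.7 in MCAO/R + Lrg1-/-. The groups overlapped except that both sham + Lrg1-/- mice lay below all WT mice. Col1a1, a chain of type I collagen, stood at 1069, 541 and 868 CPM in sham + WT, 995 and 363 in sham + Lrg1-/-, 744 and 572 in MCAO/R + WT and 849, 458 and 339 in MCAO/R + Lrg1-/-, with overlap in all comparisons. Col3a1, type III collagen, lay between 235 and 668 CPM in all 10 mice with fibroblasts. Slc6a13 stood at 1523, 370.0 and 1821 CPM in sham + WT, 1041 and 705 in sham + Lrg1-/-, 993 and 2422 in MCAO/R + WT and 991, 421 and 26.1 in MCAO/R + Lrg1-/-. The low value of 26.1 CPM belonged to MCAO/R + Lrg1-/- replicate 5, which had 6 fibroblasts. Lum stood at 1443, 1124 and 814 CPM in sham + WT, 162 and 213 in sham + Lrg1-/-, 402 and 686 in MCAO/R + WT and 1156, 694 and 1798 in MCAO/R + Lrg1-/-. For Lum, both MCAO/R + WT mice and both sham + Lrg1-/- mice lay below the 3 sham + WT mice, and all 3 MCAO/R + Lrg1-/- mice lay above both MCAO/R + WT mice. Pdgfra, which the rule did not read, stood at 868, 441 and 899.8 CPM in sham + WT, 509 and 342 in sham + Lrg1-/-, 651 and 873 in MCAO/R + WT and 708, 458 and 182 in MCAO/R + Lrg1-/-. It was not called in any comparison.

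The fibroblasts differed among themselves in the genes of meningeal layers. Of 118 cells, 72 had at least 2 of 4 pial and perivascular genes (Lama1, S100a6, Ngfr and Col15a1) and 59 had at least 2 of 4 arachnoid fibroblast genes (Aldh1a2, Crabp2, Angptl2 and Slc6a13). The latter count is raised by the rule, which reads Slc6a13. Dural genes (Fxyd5, Foxc2, Dkk2, Mgp and Ccn3) were carried by 26 cells at 2 or more. Only 5 cells had 2 or more genes of the arachnoid barrier (Slc47a1, Cldn11, Cdh1 and Dpp4), and none had a UMI of Cdh1, the epithelial cadherin of that layer. Clustering without the 18 rule genes gave 2 groups of cells. The larger, of 71 cells, was led by Epha3 and Fam180a and had Lama1 in 60 cells, S100a6 in 63 and Slc6a13 in 66. The smaller, of 47 cells, was led by Mgp, Alpl and Timp1. Of the dural genes it had Fxyd5 in 28 cells, Mgp in 28, Foxc2 in 13, and Dkk2 and Ccn3 in 4 each. Of the pial genes it had S100a6 in 31 and Lama1 in 14, and the arachnoid barrier gene Cldn11 was in 27. The panels therefore do not place this group in 1 layer. At a finer resolution of 0.6 there were 5 groups. The largest of these, 45 cells, was led by Slc22a8, the organic anion transporter 3, together with Edn3 and Col15a1. A group of 18 cells was led by Alpl, Slc4a10, Tcf21 and Bnc2. Its cells were deeper, with a median of 15299.5 UMIs against medians of 4665.5 to 6993 in the other groups. A group of 30 was led by Timp1 and Ccl7 but also by haemoglobin and myeloid genes, one of 6 by the pericyte genes Rgs5 and Notch3, and one of 19 by Cadm2 and Anks1b. Cluster sizes are not compared between the groups of mice. Across all mice, 71 cells in 9 libraries had UMIs of both Slc6a13 and Slc6a20a, a proline and imino acid transporter, a count that the rule raises because it reads Slc6a13. Only 4 cells, in 4 libraries, had 5 or more UMIs of the bicarbonate transporter Slc4a10 (limits chosen after the values were seen).

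Fibroblasts made up 0.0797, 0.0812 and 0.127% of retained cells in the sham + WT mice and 0.312 and 0.136% in the MCAO/R + WT mice. The values were 0.0634, 0.0882 and 0% in the sham + Lrg1-/- mice and 0.0466, 0.106 and 0.0176% in the MCAO/R + Lrg1-/- mice. Both MCAO/R + WT mice lay above every mouse of the other groups in this share. Before the 2 exclusions, 50, 66 and 78 cells of the sham + WT mice carried 3 or more fibroblast genes, of 13806, 9853 and 9448 retained. In the MCAO/R + WT mice 87 of 9948 and 81 of 12463 did, and as shares these groups overlapped. The 95% exact binomial interval, which covers counting error only, was 0.212 to 0.442% for MCAO/R + WT replicate 1 and 0.0795 to 0.218% for replicate 2. The absence of fibroblasts from sham + Lrg1-/- replicate 5 allows a share of up to 0.0923% at a floor of 3 counts, or 0.113% as the upper bound of the exact binomial interval. That mouse had 23 cells with 3 or more fibroblast genes, and the exclusions set all of them aside.

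**Figure D2:**
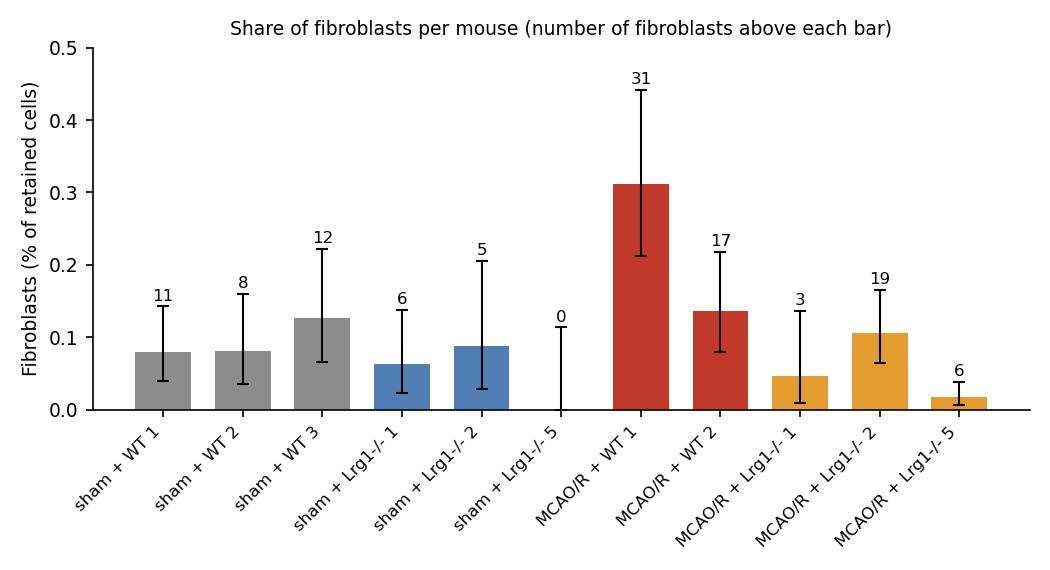
Fibroblasts as a percentage of retained cells in each of 11 mice (vertical axis, linear from 0), with 1 bar per mouse, its number of fibroblasts above it and the 95% exact binomial interval as error bar. The MCAO/R + WT mice lie at 0.136 and 0.312%, above all other mice.

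The mean share was 0.224% ± 0.124 (SD, n = 2) in MCAO/R + WT and 0.0960% ± 0.0269 (SD, n = 3) in sham + WT, a 2.33-fold ratio with an exact two-sided permutation p of 0.1 (adjusted over 4 comparisons 0.2). In MCAO/R + Lrg1-/- it was 0.0567% ± 0.0451 (SD, n = 3), a difference of -0.167 percentage points from MCAO/R + WT, with the same exact permutation p of 0.1 (adjusted 0.2). An exact p of 0.1 is the smallest that 3 against 2 mice allow. Without MCAO/R + WT replicate 1 the difference from sham + WT was 0.0404 percentage points, and without replicate 2 it was 0.216. The difference of MCAO/R + Lrg1-/- from MCAO/R + WT was -0.0797 without MCAO/R + WT replicate 1 and -0.255 without replicate 2. The share of MCAO/R + Lrg1-/- exceeded sham + Lrg1-/- by 0.00621 percentage points (exact permutation p = 0.8), and sham + Lrg1-/- differed from sham + WT by -0.0454 (exact permutation p = 0.3). With every cell thinned to 1000 UMIs before the rule, the mice of MCAO/R + WT and sham + WT overlapped (exact permutation p = 0.4), and they also overlapped when at least 4 of the 6 fibroblast genes were required (exact permutation p = 0.2). Against endothelial cells, which share the vessel wall with perivascular fibroblasts, there were 0.352, 0.353 and 0.404 fibroblasts per 100 endothelial cells in sham + WT and 1.04 and 0.586 in MCAO/R + WT. The ratio was 0.385, 0.374 and 0.292 in MCAO/R + Lrg1-/-. A share of recovered cells can move with the dissociation as well as with the tissue, and these cannot be told apart.

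The response of fibroblasts to MCAO/R in WT mice was led by 3 genes: the transcription factor gene Zbtb16, the secreted protein gene Fibin and Angptl4, which encodes an inhibitor of lipoprotein lipase. They were the only genes called of 3110 tested (0.0965%), all higher after MCAO/R, in the 10 libraries that held fibroblasts. A gene was called at an edgeR quasi-likelihood adjusted p under 0.05 and an absolute natural-log fold change over 0.25. At unadjusted p under 0.05 there were 274 genes, and DESeq2 called 12, the same 3 among them. Zbtb16, on chromosome 9 (GRCm38 48654297 to 48836222), stood at 80.2, 71.2 and 64.3 CPM in the sham + WT mice and at 536 and 967 in the MCAO/R + WT mice. It rose 10.2-fold (log2 fold change 3.35 ± 0.52 (SE), adjusted p = 0.0196). Fibin, on chromosome 2 (110360917 to 110363183), stood at 26.7, 28.5 and 10.7 CPM in sham + WT and 919 and 811 in MCAO/R + WT. It rose 38.2-fold (log2 fold change 5.26 ± 0.80 (SE), adjusted p = 0.0196). Angptl4, on chromosome 17 (33773750 to 33781830), had 202 UMIs against 1 over the group, at 591 and 769 CPM in MCAO/R + WT and 13.4, 0 and 0 in sham + WT. The ratio of its pooled levels was 154 (95% interval 27.3 to 6114), and its adjusted p was 0.0178. For all 3 genes every MCAO/R + WT mouse lay above every sham + WT mouse.

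**Figure D3:**
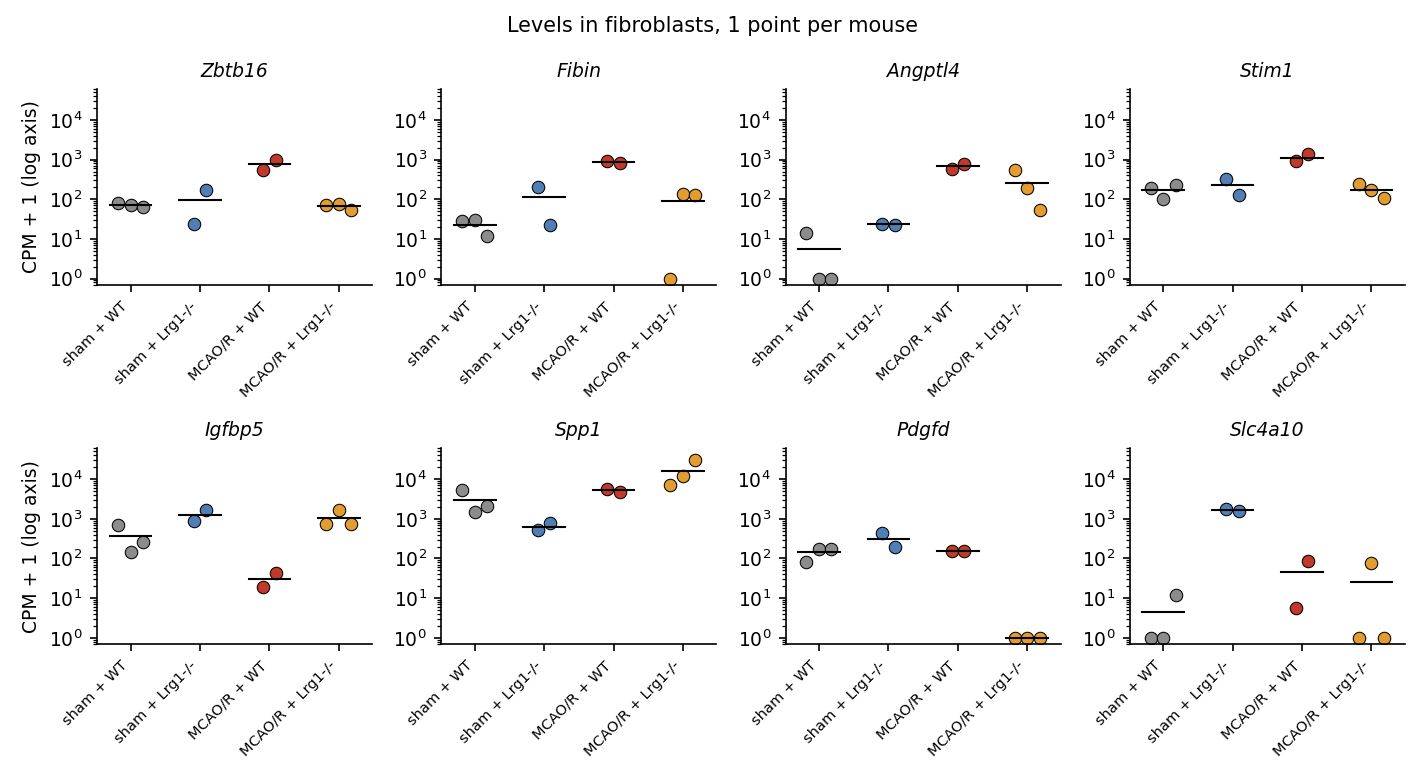
Level in fibroblasts of 8 genes named in the text (vertical log axis, CPM + 1), with 1 point per mouse, groups in colour and a line at the group mean. Zbtb16, Fibin and Angptl4 lie at 536 to 967 CPM in MCAO/R + WT mice and at no more than 80.2 CPM in sham + WT mice.

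These levels were spread over many cells. In MCAO/R + WT, Angptl4 had UMIs in 41 of 48 fibroblasts, Zbtb16 in 38 of 48 and Fibin in 27 of 48. The single cell with the most UMIs in each mouse held 14.4% of the UMIs of Angptl4, 19.6% of those of Zbtb16 and 33.6% of those of Fibin. Zbtb16 had 116 UMIs in 23 of 31 fibroblasts of replicate 1 and 93 in 15 of 17 of replicate 2. All 3 calls were also made with a minimum of 5 fibroblasts per library (7 genes called, 0.224%) and of 10 (87 genes of 4179, or 2.08%, with 47 higher and 40 lower). None of the 3 was called without any 1 of the sham + WT mice or without MCAO/R + WT replicate 2. In those fits edgeR called 0 genes, with 173 to 205 at unadjusted p under 0.05, except that it called 1 other gene without sham + WT replicate 3. Without either MCAO/R + WT mouse the group held 1 mouse, so the spread came from the other groups alone. Over all fits that left out 1 mouse, the log2 fold change ran from 2.88 to 3.72 for Zbtb16 and from 4.87 to 5.50 for Fibin. For Angptl4 it ran from 6.31 to 8.79, values that depend on the prior count.

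**Figure D4:**
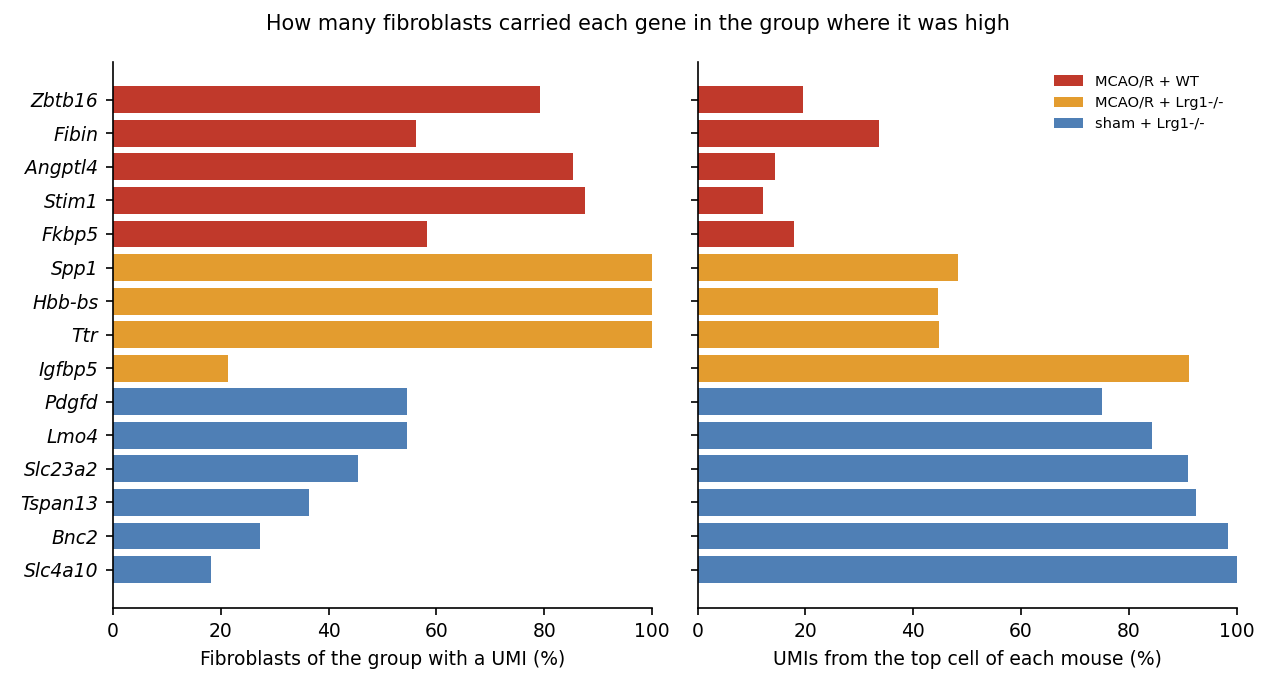
For each named gene, the share of a group's fibroblasts with a UMI (percent) and the share of its UMIs held by the top cell of each mouse (percent), in the group where the gene is high. Bars are coloured by that group. Genes high in MCAO/R + WT reach 56.2 to 87.5% of its cells, while Slc4a10 and Bnc2 in sham + Lrg1-/- rest on 18.2 and 27.3% of cells.

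Several other genes are given with their values although they did not pass the threshold; they were chosen after the values were seen. Stim1, the calcium sensor of the endoplasmic reticulum, stood at 187, 99.6 and 225 CPM in sham + WT and 896 and 1341 in MCAO/R + WT (log2 fold change 2.68 ± 0.49 (SE), adjusted p = 0.064). It had UMIs in 42 of 48 MCAO/R + WT fibroblasts. Fkbp5, a co-chaperone of steroid receptors, had 89 UMIs against 2, a ratio of 33.9 (95% interval 9.12 to 285) with adjusted p = 0.0628. It stood at 0, 0 and 21.4 CPM in sham + WT and 319 and 208 in MCAO/R + WT. The serum- and glucocorticoid-regulated kinase Sgk1 gave a fitted log2 difference of 2.38 ± 0.68 (SE), adjusted p = 0.29, the leucine zipper gene Tsc22d3 of 2.70 ± 0.74 (SE), adjusted p = 0.283 and glutamine synthetase Glul of 2.20 ± 0.58 (SE), adjusted p = 0.27. Lower in both MCAO/R + WT mice were the insulin-like growth factor binding proteins Igfbp4 (log2 fold change -2.73 ± 0.65 (SE), adjusted p = 0.229) and Igfbp5 (-3.66 ± 0.84 (SE), adjusted p = 0.199), and Col15a1, a basement membrane collagen (-2.50 ± 0.79 (SE), adjusted p = 0.315). Socs3, a feedback inhibitor of cytokine signalling, gave -2.74 ± 0.83 (SE), adjusted p = 0.3. Lcn2, an acute phase protein, had 0 to 14.2 CPM in sham + WT and 342 and 1965 in MCAO/R + WT, but 189 of its 263 UMIs came from 5 cells of replicate 2.

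No member of the matrix, signalling or stress gene lists was called in this comparison by edgeR, so the lists are described by how many members did not overlap between the 5 mice. Genes of the rule are left out of these counts in every comparison. Over all genes tested, 13.7% were higher and 13.7% lower in both MCAO/R + WT mice than in all 3 sham + WT mice, with a median log2 fold change of -0.01. Of 12 solute carriers of meningeal fibroblasts that passed the filter on low counts (21 listed), 5 were higher and 0 lower without overlap, with a median of 1.07 (1.04 with genes at 0 in a group set to the floor). One was Slc7a11, the cystine and glutamate exchanger, at 1456, 1608 and 1596 CPM in sham + WT and 4619 and 3139 in MCAO/R + WT (log2 fold change 1.32 ± 0.49 (SE), adjusted p = 0.444). Both metallothioneins tested were higher without overlap. Mt1 stood at 855, 1822 and 225 CPM in sham + WT and 2845 and 2962 in MCAO/R + WT (1.59 ± 0.83 (SE), adjusted p = 0.65). Mt2 stood at 281, 285 and 10.7 and 647 and 374 CPM. Of 18 hypoxia and glycolysis genes, 7 were higher and 2 lower. Of 19 immediate early genes, 0 were higher and 6 lower, among them Fos at 7802, 12296 and 6920.1 CPM in sham + WT and 4060.0 and 4678 in MCAO/R + WT. Of 15 basement membrane genes 0 were higher and 4 lower, and the laminin subunit Lama2 stood at 922, 1267 and 1435 and 762 and 634 CPM.

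Genes of the fibrous matrix that the rule did not read were called in neither direction by edgeR. The type I and III collagens, Dcn and Lum belong to the rule, received no call and are not counted here. Of 5 further fibrillar and associated collagens that passed the filter, 1 was higher and 1 lower without overlap, with a median log2 fold change of -0.05. Of 26 matrix glycoproteins and proteoglycans 4 were higher and 6 lower, and of 17 genes of the transforming growth factor beta pathway 3 were higher and 4 lower. Of 11 genes of myofibroblasts, the contractile form of fibroblasts, 4 were higher and 1 lower. Acta2, the smooth muscle actin that defines that state, was too low to be tested and stood at 26.7, 42.7 and 64.3 CPM in sham + WT and 32.3 and 52.0 in MCAO/R + WT. The rule set aside 239 cells with 3 or more fibroblast genes for mural genes such as Myh11 and Cnn1. Contractile cells may be among them, so Acta2 and this list describe only the cells left. Ccn2, a matricellular growth factor, stood at 935, 114 and 943 CPM in sham + WT and 2129 and 4823 in MCAO/R + WT, and was not called. Timp1, an inhibitor of metalloproteinases, stood at 13.4, 28.5 and 0 and 120.1 and 270.3 CPM. Apod, an apolipoprotein abundant in meningeal fibroblasts, stood at 10594, 4753 and 15447 CPM in sham + WT and 22508 and 32826 in MCAO/R + WT. The prostaglandin D synthase Ptgds stood at 7829, 1267 and 2764 and 21829 and 12629 CPM, and Igf2 at 802, 128 and 1339 and 1390.3 and 1497 CPM. The chemokine Cxcl12 stood at 1162, 1836 and 846 and 517 and 873 CPM, with the mice overlapping, and Ccl2 at 120.2, 1224 and 0 and 813 and 239 CPM. Tgfb2 was too low to be tested, at no more than 69.4 CPM in any mouse. Oligodendrocyte genes made up 0.0511, 0.0560 and 0.0280% of fibroblast UMIs in sham + WT and 0.183 and 0.0903% in MCAO/R + WT, and their part in these comparisons was not tested.

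Fibin stood apart among the genes called in WT mice, since it was high in fibroblasts and low in the other vessel cells after MCAO/R. On a scale of CPM over a class's plain total, Fibin ranged over 8.48 to 22.9 in fibroblasts of sham + WT mice and over 641 to 706 in those of MCAO/R + WT mice. The corresponding ranges were 3.28 to 3.67 and 7.55 to 17.8 in mural cells, 0.522 to 1.32 and 2.55 to 3.81 in endothelial cells, and 0.0847 to 0.394 and 0.508 to 0.736 in microglia. In a fit with the mouse as a block, its log2 response in fibroblasts exceeded that in mural cells by 3.74 ± 0.79 (SE), adjusted p = 0.035, and that in endothelial cells by 3.75 ± 0.80 (SE), adjusted p = 0.00155. That fit called 14 of 10032 genes against mural cells (0.14%) and 81 of 15399 against endothelial cells (0.526%) for this response. Its spread was estimated over both classes together, here and for the genes below. These p-values therefore do not measure the spread of fibroblasts between mice.

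Zbtb16 was high after MCAO/R in each class examined. Its range in sham + WT and in MCAO/R + WT was 50.9 to 62.6 and 412 to 764 CPM in fibroblasts, 17.8 to 26.0 and 221 to 301 in mural cells, 9.42 to 26.9 and 356 to 477 in endothelial cells, and 4.99 to 6.59 and 138 to 364 in microglia. Its response in fibroblasts differed from endothelial cells by -1.41 ± 0.63 (SE), adjusted p = 0.754, and from mural cells by -0.23 ± 0.59 (SE), adjusted p = 1. Fkbp5 was likewise present in each class, with 164 to 245 CPM in fibroblasts of MCAO/R + WT, 138 to 145 in mural cells, 211 to 271 in endothelial cells and 409 to 544 in microglia. Angptl4 was also higher after MCAO/R in mural and endothelial cells. Its ranges in sham + WT and MCAO/R + WT were 1.84 to 4.24 and 228 to 298 CPM in mural cells and 10.1 to 23.4 and 118 to 154 in endothelial cells. In fibroblasts they were 0 to 10.4 and 454 to 608. Its response in fibroblasts exceeded that of endothelial cells by 4.31 ± 1.08 (SE), adjusted p = 0.0153, and differed from that of mural cells by 0.80 ± 1.73 (SE), adjusted p = 0.993. Both values depend on the prior count, since fibroblasts of sham + WT held 1 UMI. Stim1 had ranges of 80.0 to 178 and 689 to 1059.6 CPM in fibroblasts and of 42.2 to 47.7 and 50.9 to 60.4 in endothelial cells, a difference in log2 response of 2.49 ± 0.55 (SE), adjusted p = 0.00295. Against mural cells it was 1.60 ± 0.52 (SE), adjusted p = 0.308. The differences called for Fibin and Angptl4 were not called with every cell thinned to 1000 UMIs. No thinned value is given for Stim1. For Fibin they were then larger but far less certain, at 6.44 ± 5.81 (SE) against mural and 9.77 ± 4.92 (SE) against endothelial cells. For Angptl4 the difference from endothelial cells was then smaller, at 1.89 ± 1.48 (SE).

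**Figure D5:**
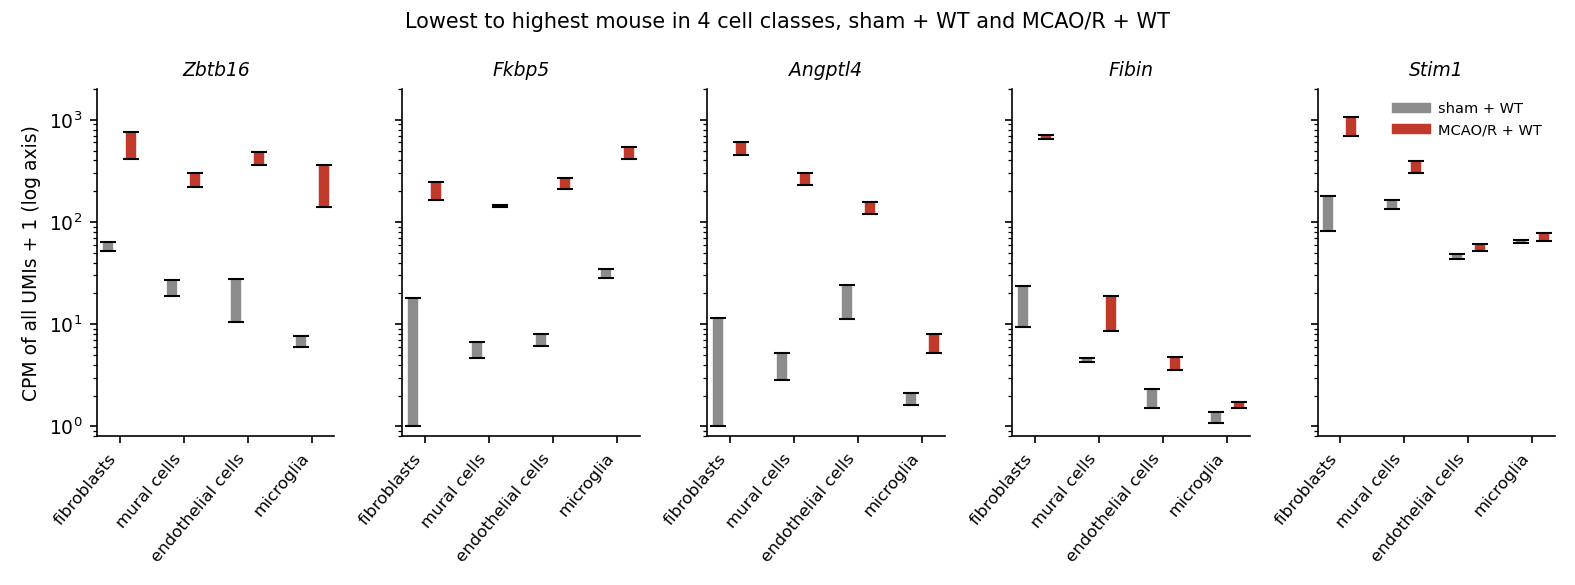
Level of Zbtb16, Fkbp5, Angptl4, Fibin and Stim1 in fibroblasts, mural cells, endothelial cells and microglia of sham + WT and MCAO/R + WT mice (vertical log axis, CPM over the class's plain total + 1), with bars from the lowest to the highest mouse. Fibin reaches 641 to 706 CPM in fibroblasts and no more than 17.8 in the other classes, whereas Zbtb16 reaches 138 to 764 in all of them.

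In MCAO/R + Lrg1-/- mice, fibroblasts had less Zbtb16 and more Igfbp5 than in MCAO/R + WT mice, together with more RNA of red blood cell and choroid plexus genes. Of 3110 genes, 4 were higher and 1 lower (0.161%, edgeR), with 381 at unadjusted p under 0.05. Zbtb16 stood at 536 and 967 CPM in MCAO/R + WT and at 70.8, 74.3 and 52.1 in MCAO/R + Lrg1-/-, near the levels of the sham + WT mice. It was 10.8-fold lower (log2 fold change -3.44 ± 0.55 (SE), adjusted p = 0.0435). No mouse of MCAO/R + Lrg1-/- reached the MCAO/R + WT levels of Zbtb16 in the other classes either. On the scale of plain class totals it ranged over 221 to 301 CPM in MCAO/R + WT and 73.5 to 96.6 in MCAO/R + Lrg1-/- in mural cells, over 356 to 477 and 75.1 to 147 in endothelial cells and over 138 to 364 and 14.6 to 40.8 in microglia. The genotype difference in fibroblasts differed from that in mural cells by -2.13 ± 0.63 (SE), adjusted p = 0.248, and from that in endothelial cells by -1.63 ± 0.65 (SE), adjusted p = 0.54. Igfbp5, on chromosome 1 (GRCm38 72857932 to 72874884), stood at 18.5 and 41.6 CPM in MCAO/R + WT and 731, 1647 and 729.5 in MCAO/R + Lrg1-/-. It was 36.2-fold higher (log2 fold change 5.18 ± 0.86 (SE), adjusted p = 0.0435). The Lrg1-/- values came from few cells, with 31 UMIs in 1 of 3 fibroblasts, 133 in 1 of 19 and 28 in 4 of 6. Both sham groups also held Igfbp5, at 695, 142 and 257 CPM in sham + WT and 856 and 1687 in sham + Lrg1-/-, so the MCAO/R + WT mice were the low ones. The genotype difference of Igfbp5 exceeded that in endothelial cells by 6.82 ± 0.67 (SE), adjusted p = 2.89e-20, and that in mural cells by 5.81 ± 0.83 (SE), adjusted p = 0.000254. Both SEs lay below the 0.86 of the fit on fibroblasts alone, because the spread was estimated over both classes together. These p-values therefore do not measure the spread of fibroblasts between mice. With every cell thinned to 1000 UMIs, only the difference from endothelial cells was called (adjusted p = 0.0156, against 0.194 for mural cells). The fit on all UMIs called 26 of 10032 genes against mural cells (0.259%) and 54 of 15399 against endothelial cells (0.351%).

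The other 3 genes called belong to the tracer lists of other cells. The haemoglobin gene Hbb-bs stood at 9.24 and 0 CPM in MCAO/R + WT and 660.4, 4694 and 13653 in MCAO/R + Lrg1-/-, a ratio of 901 (95% interval 249 to 7453), and Hba-a1 gave a ratio of 530.5 (95% interval 94.4 to 21029). Ttr, the thyroxine carrier that choroid plexus makes, stood at 337 and 93.6 CPM in MCAO/R + WT and 2264, 8769 and 3752 in MCAO/R + Lrg1-/- (log2 fold change 4.47 ± 0.79 (SE), adjusted p = 0.0474). With the genes of the tracer lists left out of the fit, no gene was called by edgeR (374 at unadjusted p under 0.05), with log2 fold changes of -3.44 for Zbtb16 and 5.18 for Igfbp5 (both adjusted p = 0.0596). With at least 5 fibroblasts per library, which drops MCAO/R + Lrg1-/- replicate 1 with its 3 cells, 57 genes were called (1.82%). Without any 1 of the sham + WT mice, which share the estimate of spread, or without MCAO/R + WT replicate 2, edgeR called 0 genes, with 190 to 386 at unadjusted p under 0.05. Zbtb16 was also not called without MCAO/R + WT replicate 1 or MCAO/R + Lrg1-/- replicate 2 or 5, and Igfbp5 was not called without MCAO/R + WT replicate 1, MCAO/R + Lrg1-/- replicate 2 or either sham + Lrg1-/- mouse. Without the deepest fibroblast of each library, edgeR gave adjusted p = 0.0534 for Zbtb16 and 0.238 for Igfbp5, and a fit on the 2 groups alone gave 0.116 for both. Over the alternatives that gave a value, the log2 fold change of Zbtb16 ran from -3.83 to -3.01 and passed the threshold in 9 of 21, and that of Igfbp5 ran from 4.57 to 6.07 and passed it in 10 of 22.

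Fibin, Stim1 and Angptl4 had lower levels in every MCAO/R + Lrg1-/- mouse than in both MCAO/R + WT mice, and the differences did not pass the threshold. These genes had been picked as high in the same 2 MCAO/R + WT mice against sham + WT. Lower levels in another group are partly built in by that choice and are no independent support. The 2 comparisons share these mice for Zbtb16 as well. Fibin stood at 919 and 811 CPM in MCAO/R + WT and 0, 136 and 130.3 in MCAO/R + Lrg1-/- (log2 fold change -3.18 ± 0.70 (SE), adjusted p = 0.0961). Stim1 stood at 896 and 1341 and 236, 173 and 104 CPM (-2.68 ± 0.51 (SE), adjusted p = 0.0565), and its genotype difference lay below that of endothelial cells by a log2 difference of -2.60 ± 0.57 (SE), adjusted p = 0.00348. Against mural cells that difference was -1.66 ± 0.55 (SE), adjusted p = 0.341, and the mean level of Stim1 in mural cells, over plain class totals, was 345 CPM in MCAO/R + WT and 137 in MCAO/R + Lrg1-/-. Angptl4 stood at 591 and 769 and 542, 186 and 52.1 CPM (-1.39 ± 0.60 (SE), adjusted p = 0.377), and its levels in all 3 Lrg1-/- mice were above those of the sham mice of either genotype. Glul, chosen after its values were seen, gave -2.33 ± 0.59 (SE), adjusted p = 0.16, and Slc7a11, at 4619 and 3139 CPM in MCAO/R + WT and 2052, 1251 and 625 in MCAO/R + Lrg1-/-, gave -1.57 ± 0.49 (SE), adjusted p = 0.26. In the other direction, the galectin gene Lgals1 stood at 300.2 and 218 CPM in MCAO/R + WT and 2618, 1437 and 1563 in MCAO/R + Lrg1-/- (2.83 ± 0.67 (SE), adjusted p = 0.118).

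Among the gene lists, Igfbp5 was the only called member outside the tracers in this comparison. Over all genes tested, 13.1% were higher and 15.3% lower in every MCAO/R + Lrg1-/- mouse than in both MCAO/R + WT mice, with a median log2 fold change of 0.01. Of 33 further fibroblast genes that passed the filter (44 listed), 3 were higher and 12 lower without overlap, with a median of -0.60. The same list had 9 higher and 5 lower in MCAO/R + WT against sham + WT, where 13.7% of all genes were higher and 13.7% lower. In sham + Lrg1-/- against sham + WT it had 6 higher and 3 lower, against 12.7 and 13.7% of all genes. Of 12 solute carriers 0 were higher and 3 lower, and of 15 basement membrane genes 0 and 5. Of 17 endoplasmic reticulum folding genes 7 were higher and 1 lower, and of 12 heat shock genes 6 and 1. Hsp90ab1, a cytosolic chaperone, stood at 1062 and 644 CPM in MCAO/R + WT and 1557, 2044 and 2970.2 in MCAO/R + Lrg1-/-. Of 9 genes of collagen processing 4 were higher and 0 lower, among them the collagen chaperone Serpinh1 at 443 and 322 and 778, 768 and 912 CPM. Of the 5 collagens outside the rule 0 were higher and 0 lower. Of 12 chemokines and cytokines that passed, 4 were higher and 0 lower, with a median of 1.63. Beside them, all 6 microglial and all 6 macrophage and leukocyte genes tested had a fitted fold change above 0, with medians of 2.12 and 4.44 (3.73 for the latter with genes at 0 in a group set to the floor). Macrophage and leukocyte genes took 0.0205 to 0.0284% of fibroblast UMIs in MCAO/R + WT and 0.0314 to 0.330% in MCAO/R + Lrg1-/-, and their part was not tested. The monocyte chemokine Ccl2 stood at 813 and 239 CPM in MCAO/R + WT and 967, 829.9 and 5315 in MCAO/R + Lrg1-/-. Some levels stood out in MCAO/R + Lrg1-/- replicate 5 with its 6 fibroblasts. Timp1 stood at 259, 817 and 8572 CPM in the MCAO/R + Lrg1-/- mice, and the cytokine Il11 at 1038, 495 and 18968 CPM in 1, 3 and 2 cells. Mmp3, a stromelysin chosen after its values were seen, was at 0 CPM in 8 of the 10 mice and at 248 and 6592 CPM in MCAO/R + Lrg1-/- replicates 2 and 5, in 5 and 2 cells.

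In Lrg1-/- mice, the osteopontin gene Spp1 rose in fibroblasts after MCAO/R, while 6 genes fell, most of them carried by a few cells of the sham mice. Of 3110 genes, 1 was higher and 6 lower (0.225%, edgeR), with 453 at unadjusted p under 0.05. Spp1, on chromosome 5 (GRCm38 104435118 to 104441050), stood at 509 and 769 CPM in the sham + Lrg1-/- mice and 7288, 11952 and 29494 in MCAO/R + Lrg1-/-. It rose 25.3-fold (log2 fold change 4.66 ± 0.81 (SE), adjusted p = 0.0339). Spp1 had UMIs in all 28 fibroblasts of MCAO/R + Lrg1-/-, and the top cell of each mouse held 48.3% of them. The tracer genes Hbb-bs and Ttr had UMIs in all 28 as well. In WT mice Spp1 was high in both states, at 5304, 1523 and 2046 CPM in sham + WT and 5769 and 4605 in MCAO/R + WT. On the scale of plain class totals, the range in sham + Lrg1-/- and in MCAO/R + Lrg1-/- was 388 to 574 and 5715 to 19412 CPM in fibroblasts, 4.12 to 7.30 and 302 to 1759.7 in mural cells, 0.964 to 1.43 and 365 to 2454 in endothelial cells, and 2.21 to 7.56 and 1503 to 9827 in microglia. The log2 response in fibroblasts was smaller than in endothelial cells by a difference of -5.27 ± 0.75 (SE), adjusted p = 4.09e-08, with 88 of 15399 genes called in that fit (0.571%) and 9 of 10032 against mural cells (0.0897%). Against mural cells the difference for Spp1 was -2.16 ± 0.87 (SE), adjusted p = 0.51, and was not called. In WT mice the response of Spp1 in fibroblasts lay below that in mural cells by a log2 difference of -5.14 ± 0.78 (SE), adjusted p = 0.000212, and below that in endothelial cells by -3.65 ± 0.69 (SE), adjusted p = 0.00015, both called. The spread in these fits was estimated over both classes together, so these p-values do not measure the spread of fibroblasts between mice. With every cell thinned to 1000 UMIs, the difference from endothelial cells in Lrg1-/- mice was -5.08 ± 1.54 (SE) and was not called. Microglial RNA made up 0.543 and 0.513% of the fibroblast UMIs of MCAO/R + Lrg1-/- replicates 2 and 5, and its part in the Spp1 level was not tested.

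The genes that fell were Slc4a10, Bnc2, Pdgfd, Tspan13, Slc23a2 and Lmo4. Slc4a10, a sodium-dependent bicarbonate transporter on chromosome 2 (62046462 to 62326730), stood at 1805 and 1579.8 CPM in sham + Lrg1-/- and 0, 74.3 and 0 in MCAO/R + Lrg1-/- (log2 fold change -5.57 ± 0.90 (SE), adjusted p = 0.0326). All of its UMIs in sham + Lrg1-/- came from 2 cells, 78 from 1 cell and 74 from another. Bnc2, a zinc finger gene on chromosome 4 (84275095 to 84675275), had 62 UMIs against 2, a ratio of 55.6 (95% interval 14.8 to 469), with adjusted p = 0.0264. It was carried by 3 of 11 sham + Lrg1-/- fibroblasts, and the top cell of each mouse held 98.4% of its UMIs there. Pdgfd, a ligand of the platelet-derived growth factor receptor beta, had 28 UMIs in sham + Lrg1-/- and 0 in MCAO/R + Lrg1-/-. It was at least 16.7-fold lower, taking a floor of 3 counts over the group (adjusted p = 0.0326), and was found in 6 of 11 sham + Lrg1-/- fibroblasts. In WT mice Pdgfd stood at 80.2, 171 and 171 CPM after sham and 157 and 156 after MCAO/R. Slc23a2, the sodium-dependent vitamin C transporter, stood at 417 and 1025 CPM in sham + Lrg1-/- and 23.6, 99.1 and 52.1 in MCAO/R + Lrg1-/- (-3.45 ± 0.63 (SE), adjusted p = 0.0423). The LIM-domain cofactor gene Lmo4 stood at 347 and 491 and 47.2, 49.5 and 26.1 CPM (-3.25 ± 0.55 (SE), adjusted p = 0.0339), and the tetraspanin Tspan13 at 602 and 576 and 0, 24.8 and 52.1 CPM (-4.48 ± 0.78 (SE), adjusted p = 0.0339). The top cell of each mouse held 92.5% of the sham + Lrg1-/- UMIs of Tspan13, 90.9% of Slc23a2 and 84.2% of Lmo4. Over plain class totals, sham + WT mice ranged over 10.4 to 45.7 CPM for Tspan13, 68.6 to 156 for Slc23a2 and 62.6 to 103 for Lmo4. The sham + Lrg1-/- mice ranged over 431 to 458, 317 to 766 and 264 to 367 CPM, so they were the high ones. None of the 7 calls was made without the deepest fibroblast of each library (209 genes at unadjusted p under 0.05), and 53 genes (1.7%) were called with at least 5 fibroblasts per library. Without sham + WT replicate 2 or 3 or MCAO/R + Lrg1-/- replicate 2, edgeR called 0 genes, with 339 to 454 at unadjusted p under 0.05.

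Spp1 and Slc23a2 were the only called members of the lists in this comparison. Over all genes tested, 13.8% were higher and 13.4% lower in every MCAO/R + Lrg1-/- mouse than in both sham + Lrg1-/- mice, with a median log2 fold change of -0.01. Of 17 endoplasmic reticulum folding genes that passed the filter, 9 were higher and 0 lower without overlap, all 17 had a fitted fold change above 0, and the median was 1.05. The chaperone Hspa5 stood at 1088 and 491 CPM in sham + Lrg1-/- and 542, 2179.9 and 1980.1 in MCAO/R + Lrg1-/-. Of 18 hypoxia and glycolysis genes 5 were higher and 1 lower, with a median of 1.02 (0.85 with genes at 0 in a group set to the floor). Gapdh stood at 278 and 469.7 CPM in sham + Lrg1-/- and 896, 1127 and 1381 in MCAO/R + Lrg1-/-. Of 13 annexins, S100 genes and their partners 5 were higher and 1 lower. Lgals1 stood at 370.3 and 64.0 and 2618, 1437 and 1563 CPM (log2 fold change 3.11 ± 0.71 (SE), adjusted p = 0.101), and S100a6 at 764 and 278 and 6769, 1957 and 1329 CPM. Of 12 chemokines and cytokines 4 were higher and 0 lower. Markers of immune cells moved with them, since all 6 microglial and all 6 macrophage and leukocyte genes tested had a fitted fold change above 0, with medians of 2.22 and 3.26. Macrophage and leukocyte genes took 0.0255 to 0.0282% of fibroblast UMIs in sham + Lrg1-/- and 0.0314 to 0.330% in MCAO/R + Lrg1-/-, and their part in the chemokine levels was not tested. Of 33 further fibroblast genes 2 were higher and 12 lower, and of 12 solute carriers 1 was higher and 4 lower.

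Without stroke, Slc4a10 and Bnc2 were higher in fibroblasts of Lrg1-/- mice than of WT mice, and both rested on very few cells. These were the only calls of 3110 genes (0.0643%, edgeR), with 323 at unadjusted p under 0.05. Slc4a10 had 152 UMIs against 1, at 1805 and 1579.8 CPM in sham + Lrg1-/- and 0, 0 and 10.7 in sham + WT. Its ratio of pooled levels was 403 (95% interval 71.2 to 16001), with adjusted p = 0.00633. Bnc2 had 62 UMIs against 1, a ratio of 164 (95% interval 28.4 to 6588), with adjusted p = 0.00478. The intervals cover counting error only, and both genes were among those leading the finer cluster of 18 cells. That cluster was made from these same fibroblasts, so it is no independent support. Slc4a10 is also a transporter of the choroid plexus epithelium, and choroid plexus genes made up 0.233 and 0.206% of fibroblast UMIs in the sham + Lrg1-/- mice. Their part in the result was not tested. Neither call was made without the deepest fibroblast of each library (0 genes called by edgeR, 133 at unadjusted p under 0.05) or when any sham + WT mouse was left out (0 called, with 206 to 294 at unadjusted p under 0.05). DESeq2 called 22 genes, both of these among them, and edgeR with at least 5 fibroblasts per library called 9 (0.288%).

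Among the lists, no member was called in the sham mice. Over all genes tested, 12.7% were higher and 13.7% lower in both sham + Lrg1-/- mice than in all 3 sham + WT mice. Of 15 basement membrane genes that passed the filter, 0 were higher and 6 lower without overlap, with a median log2 fold change of -0.72. Of 26 matrix glycoproteins and proteoglycans outside the rule 4 were higher and 7 lower. Of 6 retinoic acid genes 0 were higher and 4 lower, and Aldh1a2, which makes retinoic acid in the meninges, stood at 240.5, 228 and 407 CPM in sham + WT and 139 and 107 in sham + Lrg1-/-. Of 17 genes of the transforming growth factor beta pathway 0 were higher and 5 lower, and of 18 hypoxia and glycolysis genes 1 and 6. Solute carriers were 5 higher and 0 lower of 12. Fxyd5, a regulator of the sodium pump on the dural list, stood at 174, 157 and 0 CPM in sham + WT and 1527 and 705 in sham + Lrg1-/-.

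Whether the response to MCAO/R depended on genotype was tested as an interaction in the same fit, and 1 gene was called (0.0322%), with 275 at unadjusted p under 0.05. This was Bnc2, with 0, 0 and 10.7 CPM in sham + WT, 64.7 and 146 in MCAO/R + WT, 393 and 961 in sham + Lrg1-/- and 23.6, 12.4 and 0 in MCAO/R + Lrg1-/- (adjusted p = 0.00799). With at least 5 fibroblasts per library 1 gene was called as well (0.032%). No gene was called without the deepest fibroblast of each library, with at least 4 fibroblast markers, with a minimum count of 30, with thinning to 1000 UMIs, with the replicate block, or without sham + WT replicate 1 or 3 or sham + Lrg1-/- replicate 2 (0 by edgeR, with 9 to 321 at unadjusted p under 0.05). The 3 genes called in the WT response did not pass this test, and neither did Stim1, which was not called in WT mice either. The log2 interaction was -3.90 ± 0.91 (SE), adjusted p = 0.174 for Zbtb16, -5.51 ± 1.26 (SE), adjusted p = 0.165 for Fibin and -3.06 ± 0.76 (SE), adjusted p = 0.176 for Stim1, with the sham + Lrg1-/- group of 11 fibroblasts in 2 mice entering each. Zbtb16 stood at 23.1 and 171 CPM in the sham + Lrg1-/- mice and Fibin at 208 and 21.3. A smaller response of these genes in Lrg1-/- mice was therefore not established over the spread between mice.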

How the data were processed

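Right-brain cells of 11 mice were sequenced with the 10x Genomics 3′ kit. The authors deposited raw UMI counts per gene and barcode, made with Cell Ranger 7.0.1 according to the matrix header (the methods name another version) and STAR on the mm10 build named in the submitters' processing notes. No normalisation was applied to these deposited counts. Cells were retained by the filters of the study's methods. Doublets were kept, and a caller was applied only as an alternative, by a Scrublet-type simulation at an expected rate of 6%, and in 6 libraries the top 6% were marked because the automatic threshold marked under 0.5%.

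Counts of fibroblasts were summed per mouse, because cells are not replicates, and tested with the quasi-likelihood test of edgeR 4.0.16 in R 4.3.3 (TMM scaling, filterByExpr by group, 1 fit over the 4 groups, Benjamini-Hochberg adjustment). A call needed an adjusted p under 0.05 and an absolute natural-log fold change over 0.25, and the 18 genes of the rule received values and no call. The minimum of 20 fibroblasts per library planned at first left 1 library, so no comparison could be tested as designed. A minimum of 3, which keeps 10 libraries and all 118 cells, was chosen after the cell numbers and the calls at minimums of 5 and 3 had been seen. The differences of response between cell classes used the same 10 libraries, with the mouse as a block. Their spread was estimated over both classes together, so their SEs can lie below those of the fit on fibroblasts alone. Most genes given there had been picked by calls on these same fibroblast counts, so those tests are no independent support. The members and the gene lists were chosen with earlier results of these data known. Named genes were up to 8 called genes in each direction whose mice did not overlap and whose mean was at least 20 CPM, list members by the same calls or else by level, and 8 genes known for fibroblasts. Genes named outside this rule, and comparisons of a named gene that the rule does not pick, were chosen after their values were seen.

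CPM by mouse is scaled to the TMM-adjusted total of tested genes, and CPM by cell class to the plain class total. With 1 to 3 UMIs in a group, the ratio of pooled levels is given with an exact 95% counting interval in place of a fitted fold change. Shares of cells were compared with an exact two-sided permutation test. Sub-clusters were made with scanpy 1.11.5 (1000 variable genes without the rule genes, 15 principal components, 10 neighbours, Leiden resolution 0.3) on all fibroblasts, since balancing over libraries could not be done. The fibroblasts of a mouse held 54072 to 281689 UMIs in all, with a median of 6990 per cell, and the deepest cell held 14.2 to 59.1% of a mouse's fibroblast UMIs. Gene positions are from a GRCm38 annotation. Alternatives were DESeq2 1.42.0, other scalings, filters, cell rules and minimums, a replicate block, thinning of cells to 1000 UMIs and leaving out each mouse. Leaving out either MCAO/R + WT mouse, or either sham + Lrg1-/- mouse with fibroblasts, left 1 mouse in that group.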

Additional observations from a re-analysis of the deposited data

Results flagged for a closer look

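These results differed between genotypes or between cell classes by a test of the difference itself. The interaction of genotype and surgery was -9.76 for Bnc2 on the log2 scale, a fitted value that depends on the prior count because sham + WT held 1 UMI. The top cell of each mouse held 98.4% of the sham + Lrg1-/- UMIs of Bnc2.

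Fibroblasts differed from other vessel cells in several responses, given as the log2 response in fibroblasts minus that in the other class. Each gene was picked by its call on these same fibroblast counts, so these tests are no independent support. Their spread was estimated over both classes together. For the genotype difference after MCAO/R, Igfbp5 differed by 6.82 from endothelial cells and by 5.81 from mural cells. It had UMIs in 6 of 28 MCAO/R + Lrg1-/- fibroblasts, and the top cell of each mouse held 91.1% of them. Without the deepest fibroblast of each library its genotype difference in fibroblasts was not called (edgeR adjusted p = 0.238). For MCAO/R against sham in WT mice, Fibin differed by 3.75 from endothelial cells and by 3.74 from mural cells, and Angptl4 by 4.31 from endothelial cells.

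For MCAO/R against sham in Lrg1-/- mice, Spp1 differed by -5.27 from endothelial cells. The genes that fell in fibroblasts of these mice differed as well, and the top cell of each mouse held 75 to 100% of their sham + Lrg1-/- UMIs. Pdgfd differed by -13.08 from endothelial cells and -11.07 from mural cells, Bnc2 by -6.38 and Slc4a10 by -5.05 from endothelial cells. Tspan13 differed by -3.16 from endothelial cells and -4.69 from mural cells, Slc23a2 by -3.83 and -3.57, and Lmo4 by -3.32 from endothelial cells. The values for Pdgfd, Bnc2 and Angptl4 involve a group with 0 to 3 UMIs and depend on the prior count. With cells thinned to 1000 UMIs, the difference of Igfbp5 from endothelial cells was called and the others with a thinned value were not, and Tspan13 against mural cells had none.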

How the results depend on the processing

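Counts of called genes are given in the order MCAO/R + Lrg1-/- against MCAO/R + WT, MCAO/R + WT against sham + WT, MCAO/R + Lrg1-/- against sham + Lrg1-/-, sham + Lrg1-/- against sham + WT, and the interaction, for which the reported counts are 5, 3, 7, 2 and 1. At least 5 fibroblasts per library gave 57, 7, 53, 9 and 1, and at least 10 gave 87 for the second, the one comparison it left. At least 20 and at least 50 fibroblasts left no comparison to test. DESeq2 gave 34, 12, 22, 22 and 16, and no filter on low counts 140, 115, 215, 194 and 114. A minimum count of 30 gave 7, 0, 0, 1 and 0. Fits on the 2 groups alone gave 0, 28, 0 and 16. At least 4 fibroblast markers gave 8, 4, 0, 1 and 0, leaving out the deepest cell of each library 7, 4, 0, 0 and 0, and thinning to 1000 UMIs 1, 0, 1, 0 and 0 of 170 genes left by the filter. Without the tracer genes the first comparison gave 0. Without the 35 fibroblasts that carried at least 3 mural, 3 microglial or 3 leukocyte genes the second gave 31. For counts of 0 in these fits, edgeR gave 9 to 374 genes at unadjusted p under 0.05. The causes of these changes were not tested, apart from the fewer genes or cells that a filter leaves by construction.

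Correlations of same-numbered mice ran from -0.137 to 0.0816 over 12 pairs, against -0.181 to 0.181 over 25 pairs with other numbers. In groups with 2 mice these values mirror each other, such as -0.0695 and 0.0695 for sham + WT replicate 1 with MCAO/R + WT replicates 1 and 2. The pairs are therefore not independent and cannot exclude a pairing, and the numbers were not read as pairs. With the replicate block the counts were 2, 4, 0, 1 and 0, of which 1, 1, 0, 1 and 0 were among the genes reported. Leaving out 1 mouse at a time gave 0 to 57, 0 to 7, 0 to 53, 0 to 35 and 0 to 8. The first comparison gave 0 without any sham + WT mouse or without MCAO/R + WT replicate 2, and 57 without MCAO/R + Lrg1-/- replicate 1. The third gave 0 without sham + WT replicate 2 or 3 or MCAO/R + Lrg1-/- replicate 2, and 53 without MCAO/R + Lrg1-/- replicate 1. The fourth gave 0 without any sham + WT mouse and 35 without sham + Lrg1-/- replicate 1. The interaction gave 0 without sham + WT replicate 1 or 3 or sham + Lrg1-/- replicate 2, and 8 without MCAO/R + WT replicate 1.

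Among called fold changes, 235 of 380 alternative values stayed past the threshold, 145 did not and 0 changed sign. The uncalled fold changes printed were picked after their values were seen, so their signs are no sign of stability. Of the uncalled pairs of gene and comparison named by rule, 429 of 5686 values in 121 of 250 pairs changed sign. In the first 3 comparisons, genes whose response differed between classes fell with thinning from 26, 14 and 9 to 5, 3 and 0 against mural cells, and from 54, 81 and 88 to 12, 4 and 0 against endothelial cells. Between the sham groups, 20 differences were larger and 2 smaller against mural cells, and 118 and 35 against endothelial cells. Thinned, these were 0 and 0, and 2 and 4. The share difference of MCAO/R + Lrg1-/- against sham + Lrg1-/- turned to -0.00153 percentage points among cells with under 1% haemoglobin UMIs, and ranged from -0.0190 to 0.0258 when 1 mouse was left out. The other shares ranged from -0.255 to -0.0797 (MCAO/R + Lrg1-/- against MCAO/R + WT), 0.0404 to 0.216 (MCAO/R + WT against sham + WT) and -0.0643 to -0.0202 (sham groups). Clustering gave 2 groups at resolution 0.3 and 5 at 0.6. Depth limits what could be called, since the filter on low counts left 3110 of 32285 genes.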
